A study of Bos taurus with 9 samples.

Results

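Blastocysts from oocytes matured in low glucose, with or without BHB, held less RNA for 4 of the 10 nucleic acid sensor and interferon regulatory factor genes described here than control blastocysts. The 4 were DDX58, IFIH1, DHX58 and EIF2AK2, which code for proteins that bind double-stranded or viral RNA in the cytosol. Of all tested genes, 2.02% fell in low glucose and 1.38% with BHB. With BHB the calls were less stable: DDX58 alone passed whichever library was left out, and the count of 4 became 1 in 5 of 9 such fits. In those 5 fits the calls over all genes dropped too, from 228 to between 91 and 167. The adaptor and kinase downstream of these sensors (MAVS, TBK1) and the transcription factors IRF1, IRF3 and IRF7 passed the test in no comparison. TLR3, a further RNA sensor, did not pass either, though every control library lay above all the others (log2 fold changes -3.01 and -2.76). The 10 genes were listed by symbol, and the rule itself uses no measured values. The list was nevertheless drawn up with earlier results of these data known, so it was not blind to them. All 10 were found among the 22127 genes of the deposited count table and passed the filter on low counts.

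RNA sequencing had been run on 9 libraries of bovine blastocysts (Bos taurus) collected at day 8, each a pool of 9 to 11 embryos. The cumulus-oocyte complexes they came from had been matured for 24 h, and 3 libraries stood for each of 3 maturation media. Control medium contained glucose at 5.5 mM and both other media at 2.75 mM, and to 1 of these BHB was added at 1.8 mM, an additive that the labels do not spell out. All 3 media shared fetal bovine serum, pyruvate, gentamicin, FSH and estradiol, and no difference in fertilization or embryo culture is given, so the media differed before fertilization and the RNA was read after it. The labels do not say whether the replicates of a medium came from separate oocyte collections, so the p-values speak of the spread among pools alone, which may be technical. In pooled whole embryos, fewer cells that express a gene and less of its RNA per cell cannot be told apart.

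As background, RIG-I (DDX58, named RIGI in RefSeq) and MDA5 (IFIH1) are helicases that recognise double-stranded RNA in the cytosol and signal through MAVS on the mitochondrial surface. LGP2 (DHX58) belongs to the same family, lacks the signalling domains and tunes the other two. MAVS recruits the kinase TBK1, which activates IRF3 and IRF7, the factors that switch on interferon genes, while TLR3 senses double-stranded RNA in endosomes and PKR (EIF2AK2) answers it by blocking translation. Many of these genes are themselves induced by interferon, and in cattle the trophectoderm secretes interferon tau, the signal for the maternal recognition of pregnancy.

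Total estimated counts ran from 55611205 to 75178898 per library. Blastocyst lineage markers were present in every library: 11 of 11 listed trophectoderm genes, 7 of 8 epiblast genes and 8 of 8 hypoblast genes had rows in the table, and their summed levels overlapped between the groups. No trophectoderm or epiblast gene passed in either comparison with control, while 1 of the 8 hypoblast genes fell in both: GATA4 lay between 36.2 and 48.7 CPM in control, 12.4 and 19.4 in low glucose, and 13.8 and 26.5 with BHB (log2 fold changes -1.45 and -1.13, adjusted p = 0.00802 and 0.0432 in edgeR). The calls of marker genes in this paragraph were not followed under the alternative fits described below, so their stability is not known. Of the 11 trophectoderm genes, 2 in low glucose and 1 with BHB had an unadjusted p under 0.05 in edgeR. All 11 had log2 fold changes above 0, from 0.05 to 0.62 in low glucose and 0.06 to 0.56 with BHB. CLDN7 lay above control (142 to 169 CPM) without overlap in low glucose (177 to 244) and with BHB (173 to 263). GATA3 did so in low glucose alone (82.0 to 117 CPM in control, 122 to 136, and 109 to 121 with BHB). Genes of other cell types were read as well. The 18 listed cumulus and granulosa genes summed to between 374.9 and 501 CPM (counts scaled to library size with TMM factors) in control, 125 to 267 in low glucose and 159 to 234 with BHB, so control did not overlap either group. In each comparison with control 4 of these 18 fell (LUM, DCN, VCAN and NR5A2 in both), with a median log2 fold change of -0.98 in low glucose and -0.90 with BHB. Much of the fall in the sum lay in LUM (means of 139, 14.3 and 12.3 CPM in control, low glucose and with BHB) and VCAN (74.9, 12.8 and 7.71). In the same order HSD3B1 averaged 45.3, 59.5 and 59.3 CPM. CYP11A1 averaged 69.2, 51.8 and 47.4 CPM, overlapping control in low glucose but not with BHB. Of defining granulosa genes, INHA was at 0 in all low glucose libraries, at 0 to 1.11 CPM in control and at 0.0540 to 0.541 CPM with BHB. Control thus overlapped both other media. FOXL2 (2.26 to 4.13 CPM in control, 1.15 to 1.53 in low glucose) and AMH (0.739 to 1.45 CPM, 0.373 to 0.702) lay below control in low glucose without overlap and overlapped it with BHB, and neither passed. FSHR (3.55 to 4.61 CPM, 3.70 to 5.67, and 3.32 to 3.85 with BHB) and CYP19A1 (17.1 to 28.6 CPM, 18.4 to 20.7, and 18.4 to 27.9 with BHB) overlapped between control and both other media. INHBA (4.92 to 7.13 CPM, 2.77 to 4.46, and 2.28 to 3.87 with BHB) lay below control without overlap in both and did not pass. The 10 stroma and endothelium genes summed to 482 to 950 CPM in the controls, 285 to 452 in low glucose and 290 to 512 with BHB, with CDH5 at 0 throughout. Of the 9 tested, 1 fell in low glucose and 2 with BHB, 4 and 5 had an unadjusted p under 0.05, and the median log2 fold changes were -0.70 and -0.89. PDGFRB fell in both (-2.22 and -2.26, adjusted p = 0.00461 and 0.00673 in edgeR), and COL3A1 (-1.89 and -2.21) passed with BHB, both without overlap with control. PECAM1 (means of 57.0, 55.6 and 62.7 CPM in control, low glucose and with BHB) and KDR (1.76, 1.78 and 1.80) overlapped control in both. So did ACTA2 (76.8, 52.5 and 75.5) and COL1A1 (177, 108 and 95.2). COL1A2 and THY1 lay below control without overlap in both media, and VWF did so with BHB alone. The 15 leukocyte genes summed to 23.0 to 27.3 CPM in the controls, 21.9 to 34.5 in low glucose and 25.5 to 25.5 with BHB, with MS4A1 at 0 throughout and PTPRC at no more than 0.0909 CPM in any library. The part of the cumulus, granulosa and stroma genes in the sensor results was not tested.

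In low glucose 4 of the 10 genes fell and 0 rose past an adjusted p of 0.05 (edgeR's quasi-likelihood test with Benjamini-Hochberg adjustment over all 16469 tested genes), where 2.02% of all tested genes fell and 0.00607% rose. The median log2 fold change of the 10 was -1.18, against 0.02 over all tested genes. The 3 low glucose libraries lay below the 3 control libraries without overlap for 5 of the 10, beside 8.85% of all tested genes, and above them for 0 of the 10, beside 4.31%. With BHB the same 4 genes fell and 0 rose, where 1.38% of all tested genes fell and 0.00607% rose, with a median of -0.82 for the 10 and 0.01 for all genes. Here 5 of the 10 lay below control without overlap, beside 8.56% of all genes, and 1 above it, so that 6 of the 10 did not overlap, beside 13.3% in either direction. The comparisons with control share the control libraries, so they are not independent of each other.

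**Figure D1:**
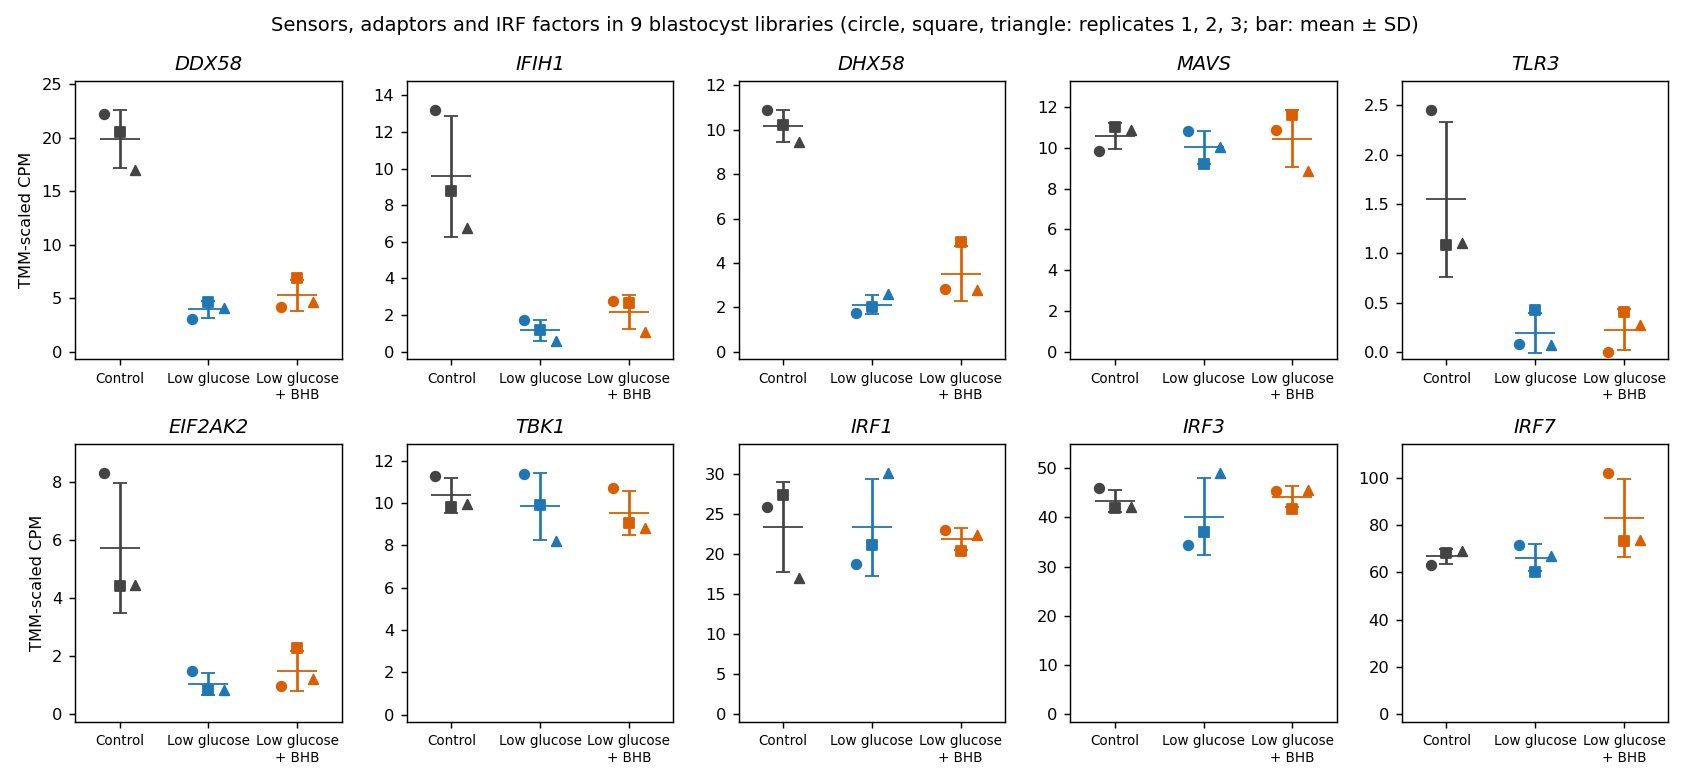
TMM-scaled CPM of each gene (vertical axes, each starting near 0 and on its own scale) in the 9 libraries by medium; symbols are replicates 1 to 3 and bars are the mean and SD. DDX58, IFIH1, DHX58, TLR3 and EIF2AK2 are higher in all 3 control libraries than in the 6 others, while MAVS, TBK1, IRF1 and IRF3 overlap between the media.

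Among the cytosolic RNA sensors, DDX58 read 22.2, 20.5 and 16.9 CPM in control replicates 1, 2 and 3. It read 3.08, 4.70 and 4.12 CPM in low glucose and 4.22, 6.91 and 4.67 CPM with BHB. The lowest control library was thus more than double the highest of the other 6. In low glucose DDX58 was 5.01-fold lower than in control (log2 fold change -2.32, SE 0.246, 95% interval -2.86 to -1.79, adjusted p = 0.000748 in edgeR), the gene of rank 14 by p among all genes. With BHB it was 3.77-fold lower than in control (log2 fold change -1.91, SE 0.243, adjusted p = 0.00325 in edgeR). It passed in both comparisons whichever single library was left out, with adjusted p in edgeR of at most 0.00654 and 0.0261.

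IFIH1, the MDA5 gene, read 13.2, 8.78 and 6.75 CPM in the controls, 1.71, 1.17 and 0.611 CPM in low glucose, and 2.76, 2.65 and 1.07 CPM with BHB. Replicate 3 was the lowest of its group in each medium, and control did not overlap the other groups. IFIH1 was 8.20-fold lower in low glucose (log2 fold change -3.04, SE 0.459, adjusted p = 0.00413 in edgeR), where it passed without any single library. With BHB it was 4.42-fold lower (log2 fold change -2.14, SE 0.441, adjusted p = 0.0334 in edgeR). That call was lost in 6 of 9 fits with a library left out: without control replicate 1 (log2 fold change -1.84), 2 (-2.20) or 3 (-2.33), and without BHB replicate 1 (-2.35), 2 (-2.32) or 3 (-1.82), with adjusted p in edgeR between 0.0541 and 0.16 in those fits.

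DHX58, the LGP2 gene, was the most even of the 3 in control, with 10.9, 10.2 and 9.45 CPM. It read 1.76, 2.03 and 2.60 CPM in low glucose and 2.84, 4.94 and 2.80 CPM with BHB, so the 3 media did not overlap, and control was highest and low glucose lowest. The fall in low glucose was 4.79-fold (log2 fold change -2.26, SE 0.286, adjusted p = 0.00174 in edgeR) and held without any single library. With BHB it was 2.88-fold lower than control (log2 fold change -1.53, SE 0.278, adjusted p = 0.0181 in edgeR). This call was lost without control replicate 1 (-1.48), 2 (-1.52) or 3 (-1.56) or BHB replicate 1 (-1.39) or 3 (-1.39), with adjusted p in edgeR between 0.0594 and 0.0984.

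EIF2AK2, which codes for the kinase PKR, read 8.30, 4.42 and 4.46 CPM in control. It read 1.48, 0.845 and 0.831 CPM in low glucose and 0.984, 2.28 and 1.22 CPM with BHB. Control replicate 1 stood well above the other control libraries, and the lowest control library still lay above all 6 others. EIF2AK2 was 5.43-fold lower in low glucose (log2 fold change -2.44, SE 0.430, adjusted p = 0.00978 in edgeR) and 3.82-fold lower with BHB (log2 fold change -1.93, SE 0.421, adjusted p = 0.045 in edgeR). The low glucose call was lost without low glucose replicate 2 (log2 fold change -2.29, adjusted p = 0.0583) or 3 (-2.30, adjusted p = 0.0519). The call with BHB was lost without control replicate 1 (-1.57), 2 (-2.09) or 3 (-2.07), low glucose replicate 2 (-1.92), or BHB replicate 1 (-1.70) or 3 (-1.80), with adjusted p in edgeR between 0.059 and 0.226.

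TLR3, the endosomal receptor for double-stranded RNA, was the sparsest of the 10. It had 146, 78 and 74 counts in control, 5, 30 and 4 in low glucose, and 0, 30 and 15 with BHB. In CPM these were 2.45, 1.09 and 1.10 in control, 0.0764, 0.422 and 0.0679 in low glucose, and 0, 0.405 and 0.273 with BHB, where the count of 0 allows up to 0.0492 CPM (3 counts). Every control library lay above the 6 others, but the spread was wide and TLR3 passed in neither comparison. The log2 fold change was -3.01 in low glucose (95% interval -5.39 to -0.62, adjusted p = 0.37 in edgeR) and -2.76 with BHB (95% interval -5.11 to -0.40, adjusted p = 0.52 in edgeR).

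Control replicate 1 was the highest of all 9 libraries for DDX58, IFIH1, DHX58, TLR3 and EIF2AK2, and it was also the highest in the sums of cumulus and granulosa genes (501 CPM) and of stroma and endothelium genes (950 CPM). The same library was the lowest of all 9 in the sums of trophectoderm genes (13440 CPM) and epiblast genes (1372 CPM). With BHB, replicate 2 was the highest of its group for DDX58, DHX58, TLR3 and EIF2AK2, and its cumulus and granulosa sum (234 CPM) was the highest of its group as well. So were its sums of trophectoderm (20718 CPM), epiblast (1943 CPM) and hypoblast genes (1648 CPM). The highest stroma and endothelium sum with BHB was in replicate 1 (512 CPM), as was the highest IFIH1. In low glucose replicate 1 had the highest cumulus and granulosa sum (267 CPM) and the highest stroma and endothelium sum (452 CPM). It also had the highest IFIH1 and EIF2AK2 of its group, and the lowest DDX58 and DHX58. The sum of interferon-induced effectors, described below, was highest of its group in control replicate 1 (579 CPM) and BHB replicate 2 (171 CPM). In low glucose that sum was highest in replicate 2 (126 CPM), the library with the highest DDX58 and TLR3 of its group. With the first pool of every medium left out, a fit added after the data were seen, the 4 genes still fell in low glucose (log2 fold changes -2.08, -3.12, -2.09 and -2.40 for DDX58, IFIH1, DHX58 and EIF2AK2, adjusted p between 0.00748 and 0.0311 in edgeR). With BHB DDX58 alone passed in that fit (-1.69, adjusted p = 0.0365), while IFIH1 (-2.05), DHX58 (-1.34) and EIF2AK2 (-1.34) had adjusted p of 0.182, 0.201 and 0.397.

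**Figure D2:**
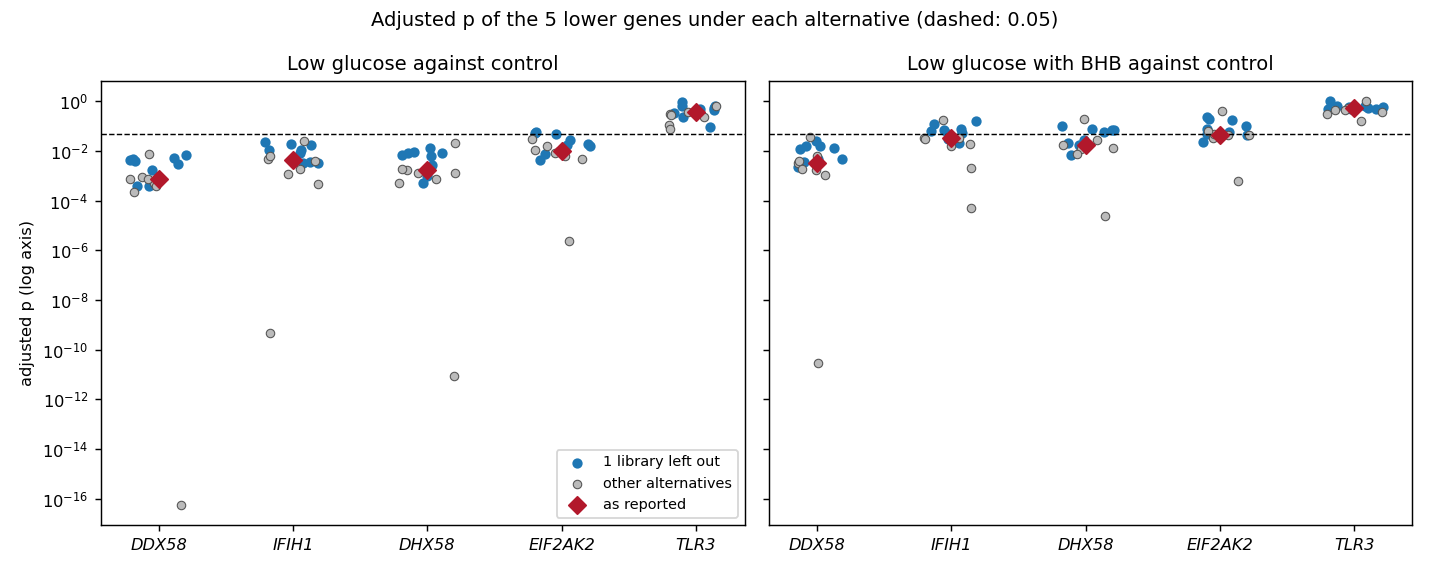
Adjusted p (log axis) of the 5 genes with higher values in control, for each comparison with control, under the reported fit (diamonds), with 1 library left out (blue) and under the other alternatives (grey). For DDX58 all points lie under 0.05 in both panels, while with BHB the points of IFIH1, DHX58 and EIF2AK2 lie on both sides of it; the lowest grey points are DESeq2.

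The signalling adaptor and kinase read by the sensors did not pass. MAVS had 9.83, 11.0 and 10.9 CPM in the controls, 10.8, 9.21 and 10.0 CPM in low glucose, and 10.8, 11.6 and 8.87 CPM with BHB, so the groups overlapped throughout. Its log2 fold change was -0.08 in low glucose (95% interval -0.46 to 0.30) and -0.02 with BHB (95% interval -0.40 to 0.36). TBK1 read 11.3, 9.80 and 9.97 CPM in the controls, 11.4, 9.91 and 8.21 CPM in low glucose, and 10.7, 9.04 and 8.80 CPM with BHB, also overlapping. Its log2 fold change was -0.07 in low glucose (95% interval -0.48 to 0.33) and -0.12 with BHB (95% interval -0.53 to 0.28). The lower bounds of these 4 intervals lie above the upper bound of -1.79 for DDX58 in low glucose.

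IRF1, a factor induced by interferons and inflammatory cytokines, read 25.9, 27.4 and 17.0 CPM in the controls, 18.8, 21.1 and 30.2 CPM in low glucose, and 23.0, 20.4 and 22.5 CPM with BHB. The highest and the lowest values were in different media, low glucose and control, and the 3 ranges overlapped. Its log2 fold change in low glucose was near 0 (95% interval -0.46 to 0.46) and its sign turned under other size factors. With BHB it was -0.09 (95% interval -0.55 to 0.37).

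IRF3, the factor that MAVS and TBK1 activate first and that is made without prior induction, read 45.8, 41.8 and 42.1 CPM in the controls, 34.4, 36.9 and 49.0 CPM in low glucose, and 45.2, 41.7 and 45.5 CPM with BHB. The low glucose group held both its highest and its lowest value. The log2 fold change was -0.11 in low glucose (95% interval -0.42 to 0.20) and 0.03 with BHB (95% interval -0.28 to 0.34).

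IRF7, which interferon signalling induces in most cells, read 63.1, 68.1 and 69.0 CPM in the control libraries. In low glucose it read 71.6, 60.3 and 66.9 CPM, overlapping them. With BHB it read 102, 73.2 and 73.4 CPM, above all 6 other libraries. Of the 10 genes it was the 1 that lay above control without overlap with BHB, beside 4.77% of all tested genes. The log2 fold change was -0.01 in low glucose (95% interval -0.32 to 0.30) and 0.31 with BHB (SE 0.142, unadjusted p = 0.0478, adjusted p = 0.668 in edgeR), so it did not pass. Without BHB replicate 1 the log2 fold change was 0.14. The estimated counts of IRF7 and EIF2AK2 were not whole numbers in 9 of 9 libraries, while the other 8 genes had whole counts.

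**Figure D3:**
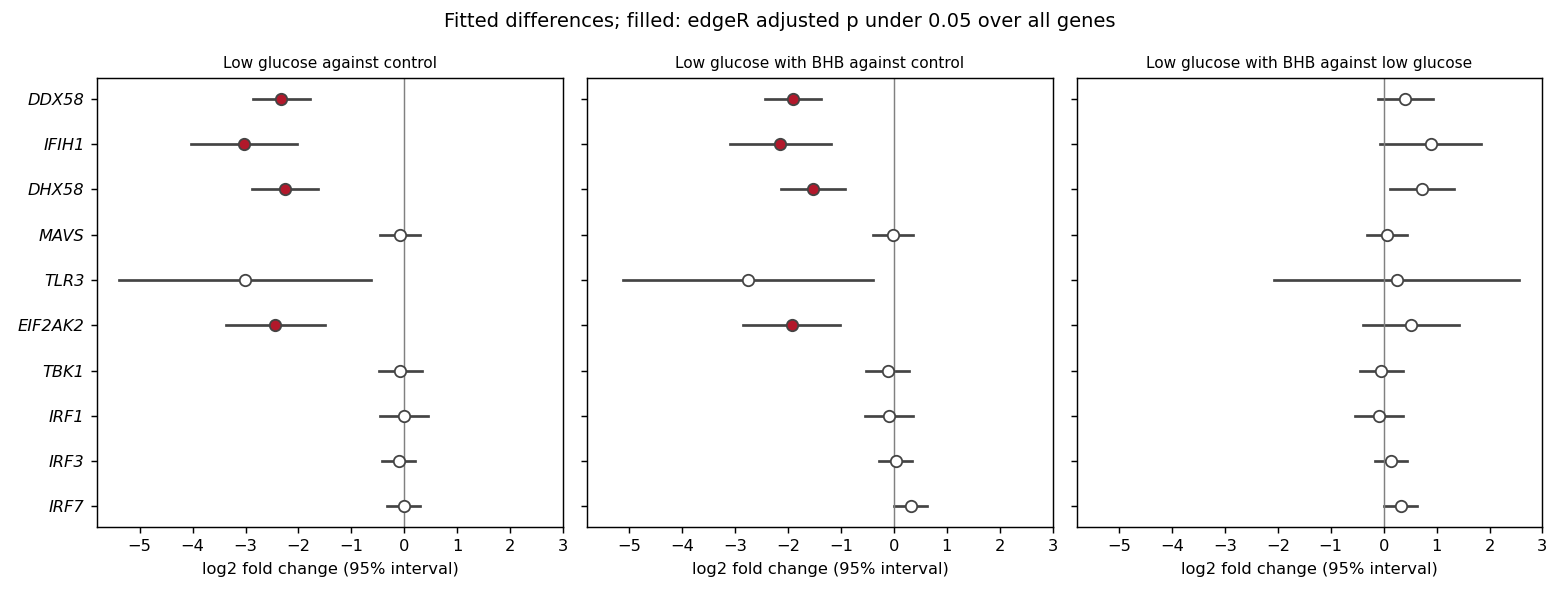
Log2 fold change (horizontal axis) with its 95% interval for each gene in the 3 comparisons; filled points passed an adjusted p of 0.05 over all genes in edgeR. DDX58, IFIH1, DHX58 and EIF2AK2 are filled in both comparisons with control, from -3.04 to -1.53, and no point is filled between the low glucose media.

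Low glucose with BHB was then compared with low glucose alone, which asks whether the additive changed these genes at the same glucose level. In edgeR 0 of the 10 genes passed, and 0% of all 16469 tested genes did; 2 of the 10 and 270 of all genes had an unadjusted p under 0.05, and DESeq2 called 2 genes in all and 0 of the 10. DHX58 and IRF7 were higher with BHB than in low glucose without overlap, 2 of 10 beside 2.96% of all tested genes, and 0 of the 10 were lower without overlap, beside 2.54%. DHX58 differed by 0.73 on the log2 scale (95% interval 0.13 to 1.34, unadjusted p = 0.0215, adjusted p = 1 in edgeR). IRF7 differed by 0.32 (95% interval 0.01 to 0.63, unadjusted p = 0.042, adjusted p = 1 in edgeR), and by 0.15 without BHB replicate 1. The 3 other fallen sensors had intervals that reach from below 0 to well above it: 0.41 for DDX58 (-0.11 to 0.93), 0.89 for IFIH1 (-0.06 to 1.84) and 0.51 for EIF2AK2 (-0.40 to 1.42), so at this replication no difference was detectable and none was shown to be absent. The median log2 difference of the 10 genes was 0.29, and 0.01 over all genes.

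The other genes of nucleic acid sensing were counted from 8 lists with 88 genes, of which 84 were tested. In low glucose 6 of the 84 fell and 0 rose, which is 7.14%, beside 2.03% of all tested genes in either direction. An unadjusted p under 0.05 was found for 8 of the 84 and for 1207 of all 16469 tested genes, and the median log2 fold change of the 84 was -0.02. With BHB 5 fell and 0 rose, which is 5.95%, beside 1.38% of all tested genes, and 10 of the 84 had an unadjusted p under 0.05, beside 1205 of all 16469.

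Among RNA sensing cofactors 3 of 12 tested fell in low glucose and 2 with BHB, while the median of the 12 was 0.02 and -0.06. ZNFX1, a helicase that binds viral RNA early in infection, went from 49.2 ± 4.00 CPM (SD, n = 3) in control to 22.6 ± 2.37 in low glucose and 26.6 ± 1.94 with BHB (log2 fold changes -1.12 and -0.89, adjusted p = 0.00153 and 0.00673 in edgeR). TRIM25, the ubiquitin ligase linked to RIG-I activation, went from 7.76 ± 1.68 CPM to 1.68 ± 0.228 in low glucose and 3.24 ± 0.672 with BHB (-2.21 and -1.26, adjusted p = 0.00177 and 0.0421 in edgeR), and with BHB it passed in 1 of 9 fits with a library left out, the 1 without low glucose replicate 3. ZC3HAV1, an antiviral protein that binds CpG-rich viral RNA, fell in low glucose (-1.01, adjusted p = 0.0276 in edgeR) but not past the threshold with BHB (-0.72, adjusted p = 0.203). Its call was lost without control replicate 1 (-0.85) or 2 (-0.996) or low glucose replicate 1 (-1.04), 2 (-1.03) or 3 (-0.94). G3BP1, a stress granule protein with the highest mean CPM of those that did not pass, was at 337 ± 25.9 CPM in the controls, 346 ± 12.6 in low glucose and 346 ± 38.6 with BHB.

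Of DNA sensing and nucleic acid clearance genes, 2 of 15 fell in each comparison. ZBP1, a sensor of Z-form nucleic acids, had 12.2 ± 0.245 CPM in the controls, 0.723 ± 0.459 in low glucose and 2.13 ± 1.62 with BHB (log2 fold changes -4.06 and -2.51, adjusted p = 0.00262 and 0.0352 in edgeR). Its call with BHB was lost without control replicate 1 (-2.49), 2 (-2.52) or 3 (-2.49) or BHB replicate 1 (-2.12) or 3 (-2.35). IFI16, a DNA sensor whose symbol came from RefSeq, had 4.52 ± 2.72 CPM in the controls, 0.773 ± 0.320 in low glucose and 0.772 ± 0.135 with BHB (-2.54 in both, adjusted p = 0.0153 and 0.0218 in edgeR). It did not pass without control replicate 1 in either comparison (-1.93 and -1.94), nor without low glucose replicate 1 (-2.51) or 3 (-2.27) in the first or BHB replicate 1 (-2.69), 2 (-2.52) or 3 (-2.44) in the second. RNASEH2A, a subunit of the enzyme that removes RNA from DNA hybrids, did not pass (157 ± 4.67, 156 ± 9.46 and 175 ± 35.4 CPM).

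IRF9, the DNA-binding part of the interferon-activated complex ISGF3, was the 1 of 9 other IRF family and partner genes that fell. It went from 16.0 ± 0.523 CPM to 7.57 ± 1.35 in low glucose and 8.81 ± 1.17 with BHB (log2 fold changes -1.08 and -0.86, adjusted p = 0.00861 and 0.0421 in edgeR). The low glucose call was lost without low glucose replicate 2 (-1.02). The call with BHB passed in 2 of 9 such fits, those without low glucose replicate 1 or 3, and the log2 fold change in all 9 lay between -0.96 and -0.77.

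No gene passed among the 18 tested kinases and signalling adaptors, 3 endosomal Toll-like receptor genes, 8 eIF2 alpha kinase and substrate genes, 12 inhibitors of sensing and 7 NF-kappa-B factors, 0 in both comparisons with control. Single genes ranged more widely than the list medians, which lay between -0.07 and 0.23 in low glucose. In low glucose the log2 fold changes ran from -0.95 (the adaptor TRADD, unadjusted p = 0.0303, without overlap) to 0.81 (the NF-kappa-B subunit REL, also without overlap). With BHB the Toll-like receptor genes had a median of -1.08, where TLR7 (-1.08) and TLR9 (-1.82) averaged at most 0.229 CPM in any medium. In the same comparison 3 of the 7 NF-kappa-B genes had an unadjusted p under 0.05, beside 1205 of all 16469 tested genes, and the median of the 7 was 0.23. The gene of highest mean CPM in each list is given next. FADD, an adaptor, had log2 fold changes of 0.09 and 0.24 in low glucose and with BHB, and UNC93B1, the chaperone that carries TLR3 to endosomes, -0.06 and -0.05. EIF2S1, the translation factor that PKR phosphorylates, had 0.03 and -0.02, and PCBP2, which promotes MAVS degradation, 0.06 and -0.06. IRF2BP1, a partner of IRF2, had 0.14 and 0.09. NFKB2 had -0.03 and 0.32, the second with an adjusted p of 0.416 in edgeR.

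Genes downstream of interferon were counted next. From the receptor to ISGF3, 3 of 9 fell in both comparisons, IRF9 among them, and the median log2 fold changes of the 9 were -0.04 and -0.02. IFNAR2, a receptor subunit, went from 2.33 ± 0.280 CPM to 0.417 ± 0.0571 and 0.261 ± 0.0426 (-2.48 and -3.15, adjusted p = 0.0104 and 0.00559 in edgeR), and the first call was lost without control replicate 2 (-2.42) or low glucose replicate 2 (-2.36). Without the first pools both IFNAR2 calls were lost (-2.51 and -3.03, adjusted p = 0.0773 and 0.0649 in edgeR), as were those of IRF9 and IFI16 in both comparisons, of ZC3HAV1 in low glucose and of TRIM25 and ZBP1 with BHB. JAK1, the kinase on that receptor, did not pass (-0.05 and -0.10).

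Of 25 tested interferon-induced effectors, 16 fell in low glucose (median log2 fold change of the 25 -3.08, the same with OAS2, at 0 in low glucose, set at its bound of 3 counts per library) and 9 with BHB (median -2.17), and 0 rose. Their summed level was 512 to 579 CPM in the controls, 88.8 to 126 in low glucose and 88.1 to 171 with BHB, without overlap with control. The antiviral GTPase MX1 went from 98.2 ± 17.99 CPM to 8.39 ± 2.48 and 14.3 ± 6.42 (-3.55 and -2.78, adjusted p = 0.000712 and 0.00325 in edgeR), and USP18, a brake on interferon receptor signalling, from 23.5 ± 1.34 CPM to 4.71 ± 1.02 and 6.83 ± 2.09 (-2.32 and -1.78). IFIT5 (-3.55 and -2.58) and IFIT1 (-4.15 and -3.02), which bind foreign RNA ends, also fell, and the IFIT1 call with BHB was lost without BHB replicate 3 (-2.95). PARP14, the effector with the highest mean CPM that did not pass, had -0.84 and -0.70, with an adjusted p of 0.0401 in low glucose without control replicate 3.

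Of the interferon genes themselves none passed. IFNT3, an interferon tau gene, was at 9.55 ± 3.45 CPM in the controls, 9.79 ± 1.97 in low glucose and 11.4 ± 7.08 with BHB (log2 fold changes 0.04, 95% interval -0.89 to 0.96, and 0.25, 95% interval -0.68 to 1.18). Interferon tau genes are near copies of each other, so their estimated counts can be split between copies. The table held 12 rows for interferon genes, of which 2 were tested and 0 passed.

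**Figure D4:**
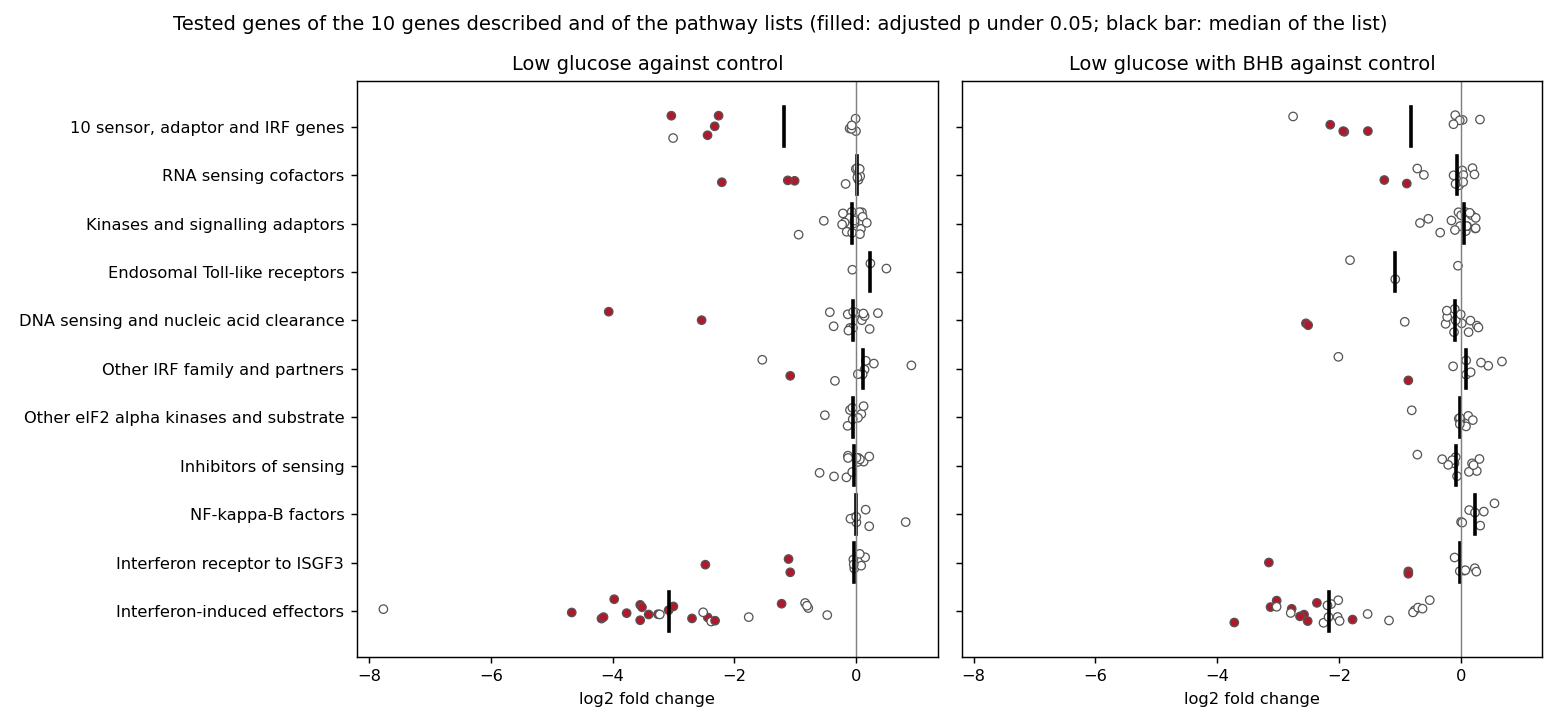
Log2 fold change (horizontal axis) of each tested gene of the 10 genes described and of 10 pathway lists, in low glucose and with BHB against control; filled points passed an adjusted p of 0.05 in edgeR and black bars are list medians. Filled points lie to the left of 0 in every list that has them, 16 and 9 of them among the interferon-induced effectors, and the lists of kinases, Toll-like receptors, eIF2 alpha kinases, inhibitors and NF-kappa-B factors have none. The effector farthest left in low glucose is OAS2, whose fitted value rests on a group at 0.

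Across the 9 libraries the patterns were compared as log2 CPM (prior count 2), centred on each gene's own mean, over 14650 genes with a symbol. By root mean square difference USP18 was nearest to DDX58 (0.0984), where DDX58 itself varied by 1.05 on the same measure. SH3PXD2B (0.218), DHX58 (0.220), TNFRSF1A (0.245) and NCOA7 (0.268) followed, and all 4 had log2 fold changes against control between -2.55 and -1.53. IRF1, which varied by 0.249, lay nearest to BRWD3 (0.0999), FAM214B, ANAPC5, KIF4A and PPFIBP2 (0.129). IRF7, which varied by 0.204, lay nearest to RNASEH2A (0.0889), NFKB1, ZCCHC4, RECQL5 and DTX2 (0.0965), and NFKB1 had a log2 fold change of 0.38 with BHB against control. The libraries share their depth scaling, and these likenesses carry no test.

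Neighbouring genes in RefSeq's ARS-UCD2.0 annotation, used for names and overlap alone, were read where they overlap the genes described. TOPORS overlaps DDX58 and had log2 fold changes of 0.09 in low glucose and 0.02 with BHB, GPATCH11 overlaps EIF2AK2 with -0.05 and -0.14, and RAD50 overlaps IRF1 with 0.08 and -0.01. None of these 3 passed in edgeR in either comparison. Whether strand was used in counting is not given in the sources used here.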

How the data were processed

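The authors' deposited table gives an estimated count for each gene, and 19.2% of its values were not whole. Per the submitters' processing notes the authors used fastp, kallisto and DESeq2 with build bosTau9, with no version, role or annotation given. Per the labels' protocols, libraries were made from poly(A)-enriched RNA. Kallisto splits reads that match several transcripts, so close copies share reads. Transcript lengths were not used, so levels are compared within a gene only.

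Estimated counts were rounded and fitted in edgeR 4.0.16 (R 4.3.3). Genes passed filterByExpr (minimum count 10, minimum total 15; 16469 kept), libraries were scaled by TMM factors, and the 3 comparisons were two-sided quasi-likelihood contrasts of group means in 1 fit of 9 libraries, adjusted over all kept genes by Benjamini-Hochberg at 0.05. Intervals are at 95% and n is 3 per group. Floors (3 counts) cover counting error only. Every pair of replicates differed by more than sampling noise (smallest chi-square per degree of freedom 38.9). Alternatives were RLE factors, no filter, a mean count of at least 50, a replicate block, the 6 libraries alone, DESeq2 1.42.0, limma-voom (3.58.1), each library left out, and, added after the data were seen, the first pools left out. Steps were tested on simulated data.

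The genes and lists were chosen with earlier results of these data known. Beyond the 10 genes, each list gave up to 4 passing genes by smallest p and the non-passing gene of highest mean CPM, and DDX58, IRF1 and IRF7 gave their 5 nearest genes. A gene that this rule names is not reported here. FSHR, CYP19A1, INHA, INHBA, FOXL2, AMH, HSD3B1, CYP11A1, GATA3, CLDN7, GATA4, PDGFRB, COL3A1, PECAM1, KDR, ACTA2, COL1A1, COL1A2, THY1, VWF, TRADD, REL, TLR7, TLR9, PTPRC, LUM, DCN, VCAN, NR5A2, CDH5, MS4A1, OAS2 and the overlapping genes were named outside that rule after their values were seen. Of the symbols, 17706 are the table's own and 323 RefSeq's. Pairing by replicate number was checked by the correlation of deviations from group means. Between the low glucose media all 3 were over 0.1 (0.115, 0.243 and 0.102). The deviations of samples of unlike number were not compared, and no label states a pairing. Whether the numbers pair samples is therefore not known. Figures used matplotlib 3.10.9.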

Additional observations from a re-analysis of the deposited data

How the results depend on the processing

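DESeq2 called 557 genes in low glucose and 420 with BHB against control, and 2 between the low glucose media, where edgeR called 334, 228 and 0. With 1 library left out, all calls ran from 196 to 391 in low glucose and 91 to 257 with BHB, those among the 10 genes from 3 to 4 and 1 to 4, and those among the 84 other pathway genes from 4 to 6 and 1 to 5. With the first pools left out, 3 pathway genes passed in low glucose, and with BHB 99 genes in all, 1 of the 10 genes and 1 of the pathway genes. DDX58, IFIH1 and DHX58 in low glucose and DDX58 with BHB passed under all 17 alternatives, and EIF2AK2 in low glucose under 15. With BHB, DHX58 passed under 11, IFIH1 under 10 and EIF2AK2 under 9. EIF2AK2 with BHB was also lost with only the 6 libraries compared (adjusted p 0.0608 in edgeR), as was TRIM25 (0.066). IFI16 was lost in limma-voom in both comparisons (adjusted p 0.0592 and 0.0774), and PARP14 in low glucose passed in DESeq2 (0.0147). The cause of these changes was not tested. TLR3 passed under none of its 16 alternatives, with adjusted p from 0.075 to 0.959 in low glucose and from 0.164 to 1 with BHB, and a mean count of at least 50 left it out. TLR3 had 4 to 30 counts per low glucose library and 0 to 30 with BHB.

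With the replicate number as a block, 405 genes passed in low glucose, 278 with BHB and 0 between both low glucose media. Of the 10 genes 4, 4 and 0 passed. The block changed no call of these 10 genes. Against control it also changed no call of the pathway genes that the naming rule gave. Other named genes, GATA4 and PDGFRB among them, were not followed singly through the alternatives. Against control the deviations of same-numbered samples correlated at 0.131, 0.0491 and 0.0417 in low glucose and 0.144, 0.0626 and 0.0458 with BHB. For replicate 1 both lay above the 0.115 and 0.102 of replicates 1 and 3 between the low glucose media. Whether replicate numbers pair samples in any comparison is thus not known.

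Among the differences followed, signs turned only for those that passed in no fit. In low glucose IRF1 was 0.00336 with RLE factors and 0.00338 in DESeq2, and in limma-voom TLR3 was -0.502 between the low glucose media. Without the first pools, low glucose gave 0.208 for IRF1, 0.0344 for IRF3, 0.00222 for JAK1, 0.0649 for NFKB2, -0.0288 for EIF2S1 and -0.110 for IFNT3, and BHB against control -0.0333 for RNASEH2A, 0.0540 for EIF2S1, 0.0162 for PCBP2 and -0.0432 for IRF2BP1. With 1 library left out, the log2 fold changes in low glucose ran from -0.231 to 0.1502 for IRF1, -0.276 to 0.00873 for IRF3, -0.0516 to 0.0629 for IRF7, -0.174 to 0.0416 for TBK1, -0.133 to 0.0948 for UNC93B1, -0.0953 to 0.00350 for JAK1, -0.0778 to 0.0358 for NFKB2, -0.0241 to 0.0509 for RNASEH2A, -0.0230 to 0.0821 for EIF2S1, -0.0114 to 0.175 for FADD, -0.00443 to 0.101 for G3BP1, -6.01e-06 to 0.131 for PCBP2 and -0.220 to 0.310 for IFNT3. With BHB against control they ran from -0.101 to 0.0861 for MAVS, -0.260 to 0.0354 for IRF1, -0.118 to 0.109 for UNC93B1, -0.0156 to 0.270 for RNASEH2A, -0.146 to 0.0444 for EIF2S1, -0.0489 to 0.112 for G3BP1, -0.0130 to 0.171 for IRF2BP1 and -0.273 to 0.647 for IFNT3. Between the low glucose media they ran from -0.497 to 1.63 for TLR3, -0.0226 to 0.164 for MAVS, -0.163 to 0.0647 for TBK1 and -0.229 to 0.138 for IRF1.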
